A study of Homo sapiens with 4 samples.

Results

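*KRT81*, *KRT7*, *KRT80*, *KRT8*, *KRT18*, *KRT10* and *VIM* are 7 of the 34241 genes listed for 4 single-cell libraries of A375, an established human melanoma line with the *BRAF* V600E mutation. They were chosen by the measured UMI counts of *KRT81* and *KRT7* across cells and libraries. Some cells held many UMIs of these 2 genes and others none, so the on-off values of the 2 are given as a description. All 7 were found in every library. The libraries were untreated, sensitive cells (S), cells resistant to the BRAF inhibitor vemurafenib (RV), cells resistant to vemurafenib plus the MEK1/2 inhibitor cobimetinib (RVC) and cells resistant to vemurafenib plus the MEK1/2 inhibitor trametinib (RVT). Resistance was raised in each treated culture by 10 to 14 days on drug at a dose under its IC50, and the drug had been withdrawn for 24 h at capture. Each condition is 1 droplet library (10x Genomics Chromium v2), so no test between conditions is possible, and all intervals are exact 95% intervals that cover counting error only.

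Keratins are the intermediate filament proteins of epithelia. A type I keratin pairs with a type II keratin, and the pairs polymerise into filaments. *KRT8* (type II) and *KRT18* (type I) encode the pair of simple epithelia, *KRT7* (type II) a keratin of glandular and ductal epithelia, *KRT80* (type II) a keratin found at cell junctions and in differentiating epithelia, *KRT81* (type II) a hair keratin, and *KRT10* (type I) a keratin of the upper epidermis. *VIM* encodes vimentin, the filament protein of mesenchymal and melanocytic cells, which assembles without a partner.

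After filtering, the libraries held 6334 S, 4177 RV, 7628 RVC and 8446 RVT cells, with a median of 8799.5, 11553, 3958 and 2864 UMIs per cell (unique molecular identifiers, counted transcript molecules). As deposited, 903 RVC and 1084 RVT barcodes held under 500 genes, and 478 and 580 held over 20% mitochondrial UMIs. No S or RV barcode held under 500 genes, and 2 of S and 1 of RV passed 20%. Levels are UMIs of a gene summed over the cells per 1000000 UMIs of the library (CPM), and since the assay counts 1 tag per molecule at the 3′ end they were compared between genes without scaling by length. S and RV were counted against a list of 33694 genes and RVC and RVT against one of 33538, and the log2 ratio of RVC and of RVT to S fell with the GC content of the transcript's last 500 bases (Spearman correlation across 6506 genes -0.348 and -0.411, against 0.008 for RV to S). These differences between the library pairs and the added MEK inhibitor cannot be told apart. Any pair of libraries shared between 36 and 103 cell barcodes. Of the 9 melanocyte lineage genes examined, *TYR* had no UMI in any library and *MLANA* and *DCT* at most 2 UMIs, *SOX10* stood at 86.5 CPM in S, 39.9 in RV and 19.7 in RVT, and both *SOX10* and *S100B* had 0 UMIs in RVC. *MITF*, the lineage's transcription factor, went the other way in RV and RVT, with 20.01 and 41.95 CPM against 9.78 in S and 8.13 in RVC, and *TYRP1* had 4 UMIs in S and 1 in RV but 4.73 CPM in RVC and 1.73 in RVT. The immune genes *PTPRC* and *CD3E* and the keratinocyte gene *TP63* had no UMI in any library.

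The 4 type II genes lie on chromosome 12 (GRCh38), *KRT80* at chr12:52168996-52192000 on the minus strand, *KRT7* at chr12:52232520-52252186 on the plus strand, *KRT81* at chr12:52285913-52291534 on the minus strand and *KRT8* at chr12:52897187-52949954 on the minus strand. The type I gene *KRT18* lies on the same chromosome, at chr12:52948871-52952901 on the plus strand, and its first bases overlap *KRT8* on the opposite strand. *KRT10* lies at chr17:40818117-40822595 (minus) and *VIM* at chr10:17228259-17237593 (plus). The hair keratin gene *KRT86* (chr12:52249300-52309163, plus) spans *KRT81* on the opposite strand and shares no exon base with *KRT7*. Over 1304 aligned coding bases *KRT81* and *KRT86* were 97.1% identical. This single local alignment ended before the last 500 bases of the *KRT81* transcript, where the assay reads. Those bases were not compared separately, and how far counts of the 2 genes mix was not tested. A 30-base stretch near the end of the aligned coding sequences is shown because it holds differences between the 2 genes, with the 7 differing bases in capitals. It lies at chr12:52286458-52286487 in *KRT81* (minus strand) and at chr12:52308410-52308439 in *KRT86* (plus strand), both read 5′ to 3′ on the gene's strand.
KRT81: gcagctcccgGggCggGgtCgtGtgCggGg
KRT86: gcagctcccgCggTggCgtTgtCtgTggCg

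S cells held 1181 CPM of *KRT81* (1172 to 1190) and RV cells 596 (590 to 603), against 0.0303 in RVC (0.000768 to 0.169) and 93.4 in RVT (89.7 to 97.2). It was thus most abundant in untreated cells, 1.98-fold lower in RV (1.95 to 2.01) and 12.6-fold lower in RVT (12.1 to 13.2), and the RVC value was 1 UMI in 7628 cells. *KRT86*, its near-identical neighbour, stood far lower, at 2.29 CPM in S and 7.78 in RV against 0.0303 in RVC and 1.93 in RVT. *KRT86* was higher in RV than in S while *KRT81* was lower.

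For *KRT7*, S cells held 178 CPM (175 to 182) and RV cells 603 (597 to 610), with 1.40 in RVC (1.02 to 1.86) and 25.6 in RVT (23.7 to 27.7). Against S it was 3.38-fold higher in RV (3.31 to 3.46), 128-fold lower in RVC (95.8 to 175) and 6.96-fold lower in RVT (6.43 to 7.54). In RV the levels of *KRT7* and *KRT81* were nearly equal, and their intervals overlapped. *KRT80* was less abundant, at 32.6 CPM in S against 63.0 in RV, and 14.3 in RVC against 56.6 in RVT. Unlike *KRT81* and *KRT7*, it was higher in RVT than in S (1.74-fold, 1.62 to 1.86). The median gene was also higher there, at a log2 ratio of 0.41 against 0.80 for *KRT80*, so the size of this rise depends on the scaling.

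*KRT8* was the most even of the 7, at 132 CPM in S against 194 in RV, and 144 in RVC against 117 in RVT. Its type I partner *KRT18* was not: S cells held 770 CPM and RV cells 1545, against 57.1 in RVC and 142 in RVT. Against S, *KRT18* was 2.01-fold higher in RV (1.98 to 2.03), 13.5-fold lower in RVC (12.9 to 14.1) and 5.41-fold lower in RVT (5.23 to 5.60). *KRT8* moved by 1.47-fold at most in these comparisons, so that the partner genes were not kept in 1 ratio. *KRT10* reached 232 CPM in S and 240 in RV against 80.3 in RVC and 114 in RVT. *VIM* was the most abundant member everywhere, with 2433 CPM in S and 2590 in RV against 559 in RVC and 331 in RVT. Both were close to equal in S and RV and lower in RVC and RVT.

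**Figure D1:**
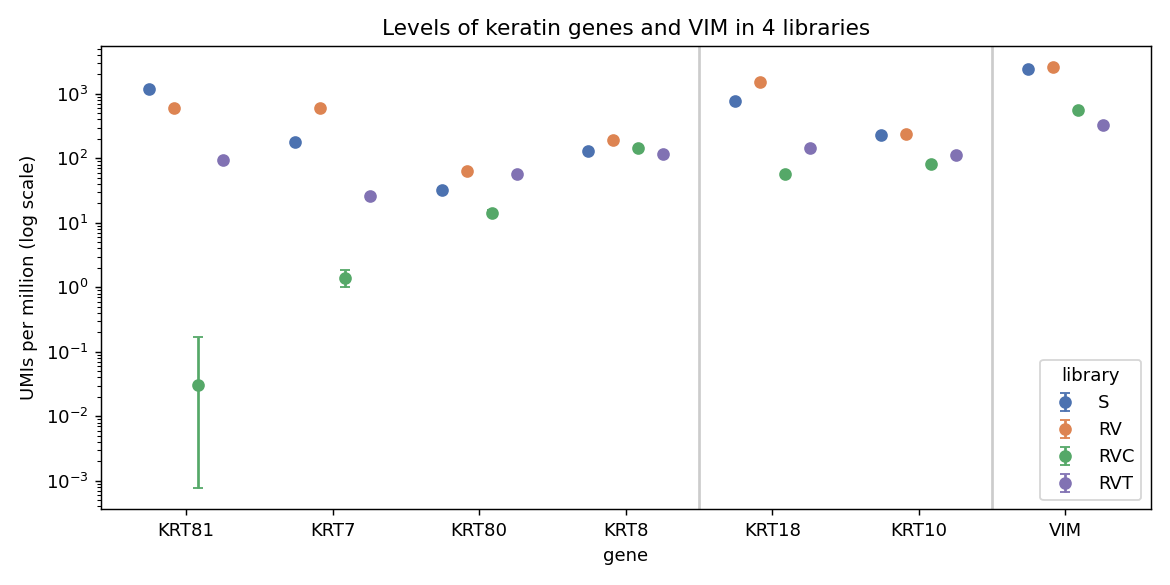
Level of each gene in CPM (log axis) in the 4 libraries, 1 point per library with its exact 95% Poisson interval; vertical lines part type II keratins, type I keratins and *VIM*. *KRT81* ran from 1181 in S to 0.0303 in RVC, whereas *KRT8* stayed between 117 and 194.

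Read together, 6 of the 7 members were at least 2-fold lower in RVC than in S and none higher, *KRT8* being the exception. Among genes whose higher value was 10 CPM or more, 24.4% were at least 2-fold lower and 24.9% higher (27.9% and 18.3% with TMM scaling, which sets library sizes so that most genes are even). In RVT against S 5 members were lower and none higher, where 23.1% and 34.6% of all genes were (31.1% and 21.2% with TMM). *KRT10*, 1 of the 5, lay next to the limit, 2.03-fold lower with an interval reaching below 2-fold (1.95 to 2.11). In RV against S none was at least 2-fold lower and 2 were higher, *KRT7* and *KRT18*, against 1.66% and 2.61% of all genes. *KRT81*, *KRT80* and *KRT18* lay next to the 2-fold limit here, at log2 ratios of -0.99, 0.95 and 1.00. In RVT against RVC 4 members were higher and none lower, against 19.6% and 12.1% of all genes (11.3% and 17.9% with TMM, under which *VIM* was also lower). The median log2 ratio of the 7 was 0.56 in RV, -2.12 in RVC and -2.44 in RVT, all against S, where the median gene stood at 0.03, 0.20 and 0.41. The comparisons with S share its library, and the members were chosen with these values known.

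The falls in RVC and RVT stood beside the GC difference described above. The last 500 bases of *KRT81*, *KRT7* and *KRT8* hold 61.0%, 60.4% and 60.6% GC. In the highest of 20 bins of GC content (60.6% to 73.8%), which holds *KRT81* and *KRT8*, the median of 345 genes was a log2 ratio of -2.37 in RVC and -2.35 in RVT against S. *KRT8* lies at the lower edge of this bin. *KRT7* lies in the bin below, whose medians were -1.35 and -1.70, so the centred values depend on the bin edges. After centring within these bins the log2 ratio of *KRT81* was -12.88 in RVC and -1.31 in RVT, in place of -15.25 and -3.66, and that of *KRT7* was -5.65 and -1.10 in place of -7.00 and -2.80. *KRT8* turned from 0.13 in RVC and -0.17 in RVT to 2.50 and 2.18, so its evenness did not hold under GC centring. For *VIM* (34.2% GC) the centred value in RVT was -3.53 against -2.88. The part of GC content in these ratios was not tested further, and in RV against S no bin median exceeded 0.065.

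Added up, the 4 type II members had 1.52 UMIs for each UMI of the 2 type I members in S and 0.816 in RV, with 1.17 in RVC and 1.14 in RVT. Type II messages were in excess in S, RVC and RVT and type I messages in RV. The excess in S was not found in all its cells. S cells with no *KRT81* UMI, a class set by *KRT81* itself, held 141.1 CPM of type II and 711.2 of type I keratins. The RVC and RVT ratios were not centred by GC. They set *KRT81*, *KRT7* and *KRT8*, at 60.4% to 61.0% GC, and *KRT80*, at 45.6%, against *KRT18* and *KRT10*, at 50.2% and 45.2%. All 54 keratin genes together reached 2548 CPM in S and 3280 in RV against 300.4 in RVC and 560.5 in RVT, and the 6 keratins described here made up 97.98% to 99.1% of these UMIs. Of the 48 other keratins 26 had no UMI in S and 39 none in RVC. *KRT14* and *KRT15*, type I keratins of basal epithelium, were the only others to reach 10 CPM in a library, at 11.4 and 11.7 CPM in RV against 6.25 and 5.30 in S. *KRT14* had no UMI in RVC, where 3 UMIs correspond to 0.0910 CPM. No gene with the name of a processed *KRT8* or *KRT18* pseudogene was listed.

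The 12 epithelial genes examined, none of them a keratin, were low in every library. None of these 12 reached 10 CPM in a library, their sum ran from 0.670 CPM in RVT to 9.83 in RVC, *CDH1* had no UMI anywhere and *EPCAM* at most 6. *CLDN4* made up 9.19 CPM of the sum in RVC and had 3.435 CPM in S, 3.603 in RV and 0.118 in RVT. Of the 10 mesenchymal genes 7 reached 10 CPM in RVC or S, of which 1 was at least 2-fold lower and 4 higher in RVC, where 24.4% and 24.9% of all genes were. Of the 7 that reached it in RVT or S none was lower and 4 were higher in RVT, where 23.1% and 34.6% of all genes were. *SNAI2*, *TWIST1* and *CDH11*, all under 10 CPM, were also over 2-fold higher in both, *CDH11* from 2 UMIs in S. Their sum came to 773 CPM in S and 899 in RV against 1159 in RVC and 1907 in RVT. *TGFBI* made up 720 CPM of the sum in RVC and *SPARC* 1283 CPM of that in RVT, whereas *SPARC* stood at 142 CPM in RVC against 321 in S. Of 6 fibroblast genes none reached 10 CPM in S or RV, whereas *COL3A1* had 121 CPM, *LUM* 22.6 and *DCN* 14.8 in RVC. The 6 together came to 2.58 CPM in S and 2.19 in RV against 167 in RVC and 43.3 in RVT, and their part in the member levels was not tested. Of 12 other intermediate filament genes 5 reached 10 CPM in RVC or S, of which 2 were at least 2-fold lower and 2 higher in RVC, and of the 5 that reached it in RVT or S 3 were lower and 1 higher in RVT, beside the shares of all genes just given. *LMNA*, which encodes the lamins A and C of the nuclear envelope, was ordered as *KRT18* was, with 315 CPM in S and 558 in RV against 72.5 in RVC and 110 in RVT. *NES*, the neural progenitor filament nestin, was lower in every resistant library (6.82 CPM in RV, 1.58 in RVC and 1.22 in RVT against 26.0 in S), and *NEFL*, the light neurofilament, was high in RVC alone (155 CPM against 8.19 to 11.6). *SYNM*, which encodes synemin, had 15.4 CPM in RVT against 2.44 in S, and of the B-type lamin genes *LMNB1* had 12.1 CPM in RVC against 4.44 in S and *LMNB2* 4.88 in RVT against 11.1 in S. Of 16 genes of filament linkers and desmosomes 2 reached 10 CPM in RV or S, and neither differed by 2-fold between them, where 1.66% of all genes were lower and 2.61% higher. Among the rest, at few UMIs, *DSG3* (55 UMIs in 10 cells against 7 UMIs in 4 cells) and *DSC2* (42 against 20 UMIs) were over 2-fold higher and *DSC3* (31 against 96) over 2-fold lower in RV. Against S, 3 of the 16 reached 10 CPM in the comparison with RVC and 3 in that with RVT. Of these *DST* and *DSG2*, a linker and a desmosomal cadherin, were at least 2-fold higher in RVC and RVT, where 24.9% and 34.6% of all genes were, and *PLEC*, the linker plectin, was lower in RVC (19.7 against 66.8 CPM), where 24.4% were. Among those under 10 CPM, *PPL*, *PKP3* and *DSC3* were over 2-fold lower than in S in both RVC and RVT. *JUP* was lower in RVT (4 against 192 UMIs) and *DSC2* in RVC (4 against 20). *PKP2* was over 2-fold lower in RVC and higher in RVT, and *DSG3*, at few UMIs, the reverse.

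In single cells, *KRT81* was far from evenly spread in S. A cell was called on from 3 UMIs and off (zero) at 0 UMIs of a gene. Of the S cells 44.8% were *KRT81*-on (43.6% to 46.1%), 40.7% had no *KRT81* UMI (39.5% to 42.0%) and 14.4% had 1 or 2. An equal level in every cell would have left 5.6 cells at 0 in place of the 2580 counted. The values ran on from these limits without a gap, with 184 cells at exactly 2 UMIs and 115 at exactly 3, but 1537 cells held 20 or more and the highest held 177. The on cells carried 98.4% of the *KRT81* UMIs, and the median on cell had 22.0 *KRT81* UMIs per 10000 UMIs, with 7.62 and 43.8 at the 10th and 90th percentile.

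RV kept the split with lower on cells. There 44.2% of cells were *KRT81*-on and 36.0% had none, 1505 cells where an equal level would leave 24.0. The median on cell had 9.94 *KRT81* UMIs per 10000, and 542 cells held 20 or more. RV cells are deeper, so shares were also read after every cell was thinned at random to 1500 UMIs. On cells were then 26.8% in S and 13.3% in RV, and cells with no *KRT81* UMI 56.2% and 63.1%. In RVT 20.2% of cells had a *KRT81* UMI, but just 1.67% were on, no cell held more than 7, and 6742 cells were at 0 where an equal level would leave 6420.9. The variance over the mean of thinned *KRT81* counts, which is 1 for counting error alone, was 3.96 in S, 2.94 in RV and 1.25 in RVT. A low level draws this ratio toward 1, and the mean of the thinned counts was 0.144 in RVT against 1.65 in S and 0.909 in RV, so the ratios do not rank the spread of libraries or genes of unequal level.

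*KRT7* was found in more cells of RV, where its level was also higher. In S 20.7% of cells were *KRT7*-on and 58.3% had none, 3694 where an equal level would leave 1403.4. In RV 72.1% were on and 8.43% had none, 352 cells where an equal level would leave 22.9. After thinning the on cells were 1.52% in S and 8.09% in RV, and cells with any *KRT7* UMI 17.1% and 51.3%. No *KRT7*-on cell was found in RVC (0 of 7628 cells, exact upper bound 0.0484%) and 3 in RVT. The variance over the mean of thinned counts was 1.55 in S and 1.36 in RV, at means of 0.241 and 0.847.

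**Figure D2:**
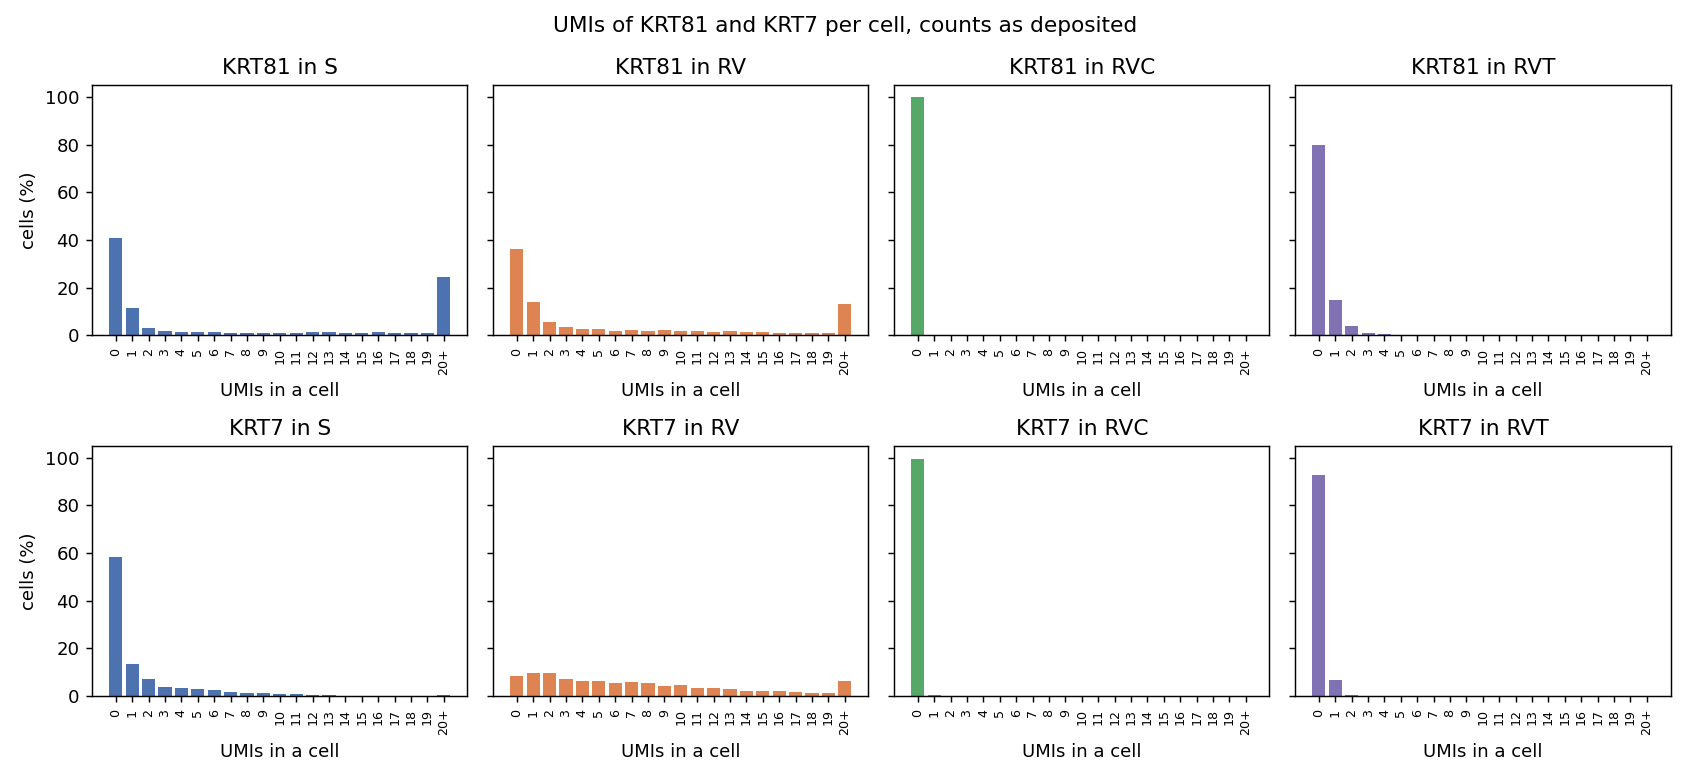
Percent of cells (vertical axis) with 0 to 19 and with 20 or more UMIs (horizontal axis) of *KRT81* (upper row) and *KRT7* (lower row) in each library, counts as deposited. *KRT81* had 40.7% of S cells at 0 and 24.3% at 20 or more, *KRT7* moved off 0 in RV, and RVC held nearly all cells at 0 for both.

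Among the other members *KRT18* had thinned ratios of variance to mean of 1.62 in S and 1.90 in RV against 1.04 in RVC and 1.46 in RVT, with 96.7% of S and 99.6% of RV cells holding a UMI as deposited, and a single S cell held up to 145. *KRT80*, low in every library, lay between 1.02 and 1.16. *KRT8* stayed between 1.00 and 1.065 and *KRT10* between 0.998 and 1.03 in all libraries. *VIM* lay between 1.12 and 1.54 and was detected in 99.97% of S and 99.95% of RV cells. A cell without any keratin UMI was rare in S (0.363%) and RV (0.0239%) and common in RVC (33.6%) and RVT (27.8%). At 1500 UMIs per cell these shares were 15.5%, 3.26%, 64.2% and 46.3%, and the order of the libraries was the same.

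No empty droplets and no cell type known to lack keratins were at hand, so the share of these UMIs that came from free RNA was not measured.

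*KRT81* and *KRT7* went together in S. Of the *KRT81*-on S cells 46.0% were *KRT7*-on, against 0.116% of *KRT81*-zero cells. Counted as states, 20.6% of S cells were on for both, 10.1% were *KRT81*-on without *KRT7*, 35.9% had neither, and 3 of 6334 cells were *KRT7*-on without *KRT81*. Nearly every *KRT7*-on cell of S thus had *KRT81* UMIs, while many *KRT81*-on cells had no *KRT7* UMI. *KRT81* was also the more abundant of the pair in S (1181 against 178 CPM), and the *KRT81*-on cells without *KRT7* were shallower than those on for both (median 7339 against 10804 UMIs). The part of level and depth in this order was not tested. In RV, at the depth as deposited, 37.1% of cells were on for both and 21.3% were *KRT7*-on with no *KRT81* UMI, 889 cells, at near-equal levels of the 2 genes, and 54 cells were *KRT81*-on without *KRT7*. After thinning to 1500 UMIs the latter 2 states held 186 and 224 RV cells, so which of them was larger turned with depth, while in S they held 4 and 1008 cells and kept their order.

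Detection was also compared at equal depth. After thinning, 40.5% of *KRT81*-on S cells had a *KRT7* UMI against 3.91% of *KRT81*-zero cells, a ratio of 10.4 (6.51 without thinning), and in RV 59.6% against 48.3%, a ratio of 1.23, which the high share in *KRT81*-zero cells of RV bounds. Both genes were detected in 14.9% of thinned S cells where the product of their shares was 7.49%, and in 20.8% of RV cells where it was 18.9%. In RVT 0.566% of thinned cells held both against a product of 0.439%.

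**Figure D3:**
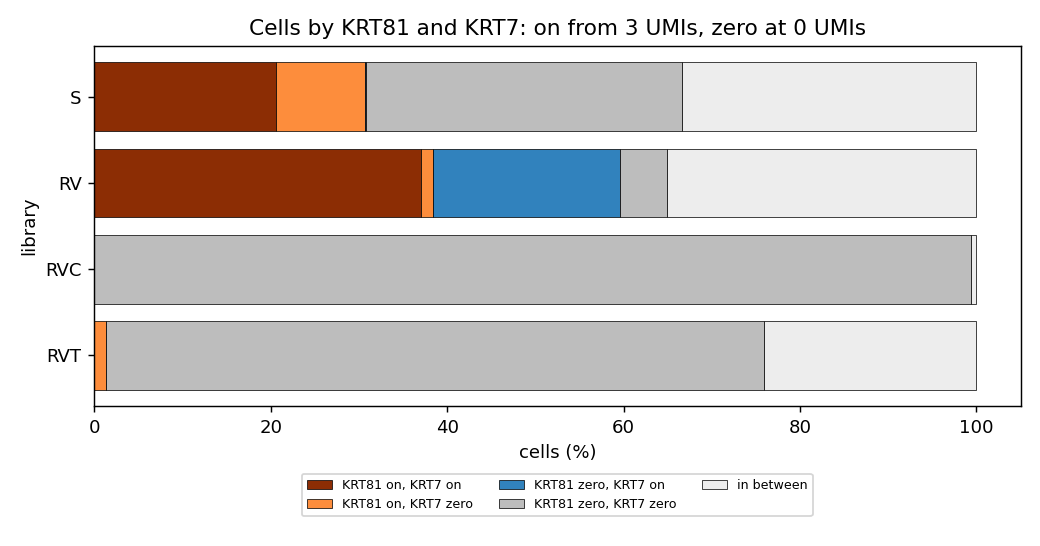
Percent of cells in each library by *KRT81* and *KRT7*, on meaning 3 UMIs or more and zero meaning none; cells with 1 or 2 UMIs of either gene are in between. Cells *KRT7*-on with no *KRT81* made up 0.0474% of S and 21.3% of RV, and RVC held 99.4% of cells with neither.

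Across cells of S, thinned to 1500 UMIs, the Pearson correlation of log2 levels was 0.43 for *KRT81* with *KRT7*, 0.27 with *KRT18*, 0.21 with *KRT80*, 0.02 with *KRT8*, 0.03 with *KRT10* and -0.08 with *VIM*. The same values in RV with *KRT7*, *KRT18*, *KRT80* and *VIM* were 0.09, 0.04, 0.05 and -0.07, and those with *KRT8* and *KRT10* were 0.003 and -0.002. *KRT8* and *KRT18*, partners in the filament, had 0.01 in S and 0.02 in RV. Cells of 1 library share its preparation, the counts are sparse and thinned counts of low genes hold correlations down, so these values describe the libraries and carry no p.

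**Figure D4:**
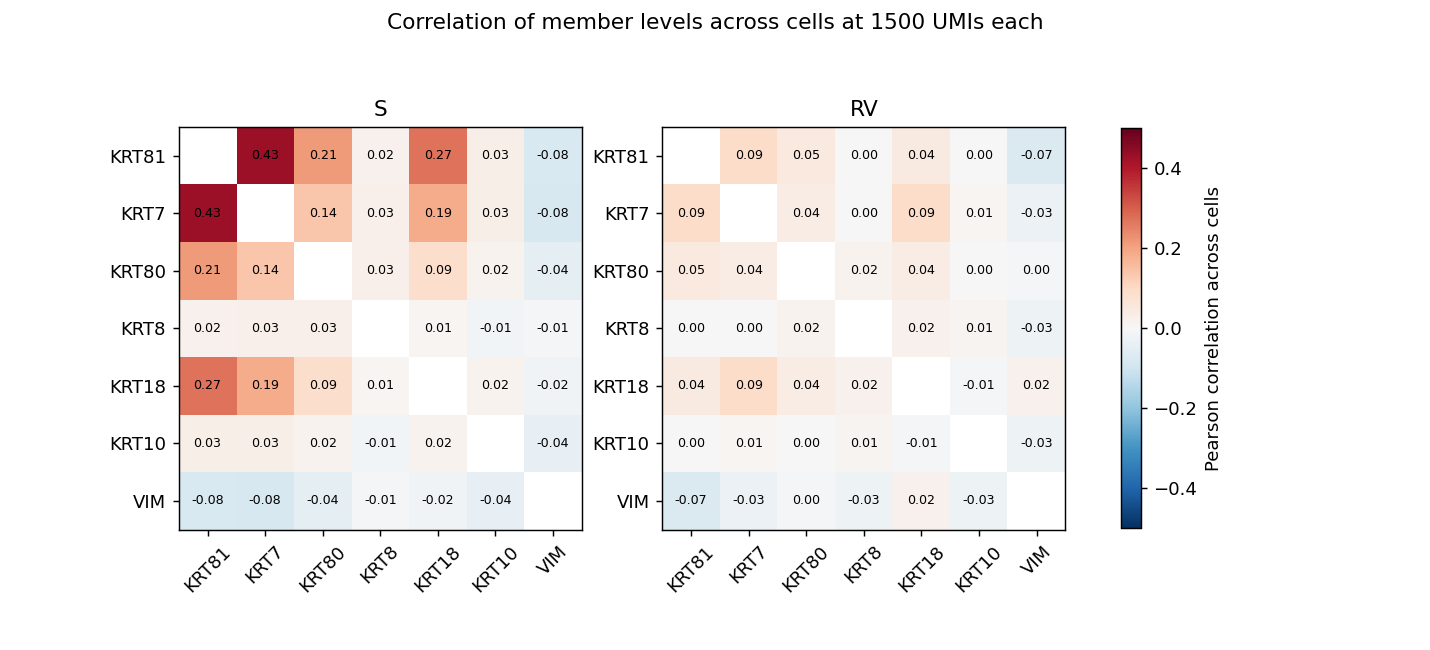
Pearson correlation across cells of log2(UMIs per 10000 + 1) for each pair of the 7 genes in S (6334 cells) and RV (4177 cells), each cell thinned to 1500 UMIs; the diagonal is left blank. *KRT81*, *KRT7*, *KRT18* and *KRT80* form the red block of S, led by 0.43, and no pair of RV passes 0.09.

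The split by *KRT81* was then used to read the other members. In S, *KRT7* had 355 CPM in *KRT81*-on and 15.3 in *KRT81*-off cells, 23.2-fold more (20.8 to 25.9). *KRT80* had 65.3 and 2.01 CPM, 32.5-fold more (24.2 to 44.7). *KRT18* had 1067 and 492 CPM, 2.17-fold more (2.12 to 2.22). Thus 3 of the 6 other members were at least 2-fold higher and none lower, where 3.67% of all genes were higher and 2.65% lower. *KRT7* is one of the 3, and since it was chosen together with *KRT81* nothing is read from its place in this count. *KRT8* (147 and 118 CPM), *KRT10* (252 and 213) and *VIM* (2293 and 2567) stayed within 1.25-fold. *KRT86* went with *KRT81*, at 4.43 and 0.357 CPM, as did *KRT14* at 10.4 and 2.05.

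In RV the same split parted little. *KRT7* had 691 CPM in *KRT81*-on and 501 in *KRT81*-off cells, 1.38-fold more (1.35 to 1.42). *KRT80* had 72.6 and 52.4 CPM, 1.39-fold more, and *KRT18* 1621 and 1438, 1.13-fold more. None of the 6 passed 2-fold in either direction, where 0.05% of all genes were higher and 0.217% lower. The 3 genes that were at least 2-fold higher, named after their values were seen, were *KRT81* itself, *KRT86* (10.8 and 3.82 CPM) and the nerve growth factor receptor gene *NGFR* (15.0 and 7.39 CPM). The 13 lower genes included *S100B* (2.42 and 12.8 CPM), *ERBB3* (8.93 and 21.01), *SAT1* (77.7 and 174) and *CAPS* (21.9 and 59.2). In S the 2 directions held 226 and 163 genes and in RV 3 and 13.

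The classes need not hold like cells in the 2 libraries: *KRT81*-off cells had 4.11 CPM of *SPANXB1* in S and 1133 in RV, and melanocyte lineage sums of 259 and 101 CPM. RV and S differed in both classes of cells, and in *KRT7* and *KRT80* by more in those without *KRT81*. Among these, RV over S was 32.8-fold for *KRT7* (29.4 to 36.6), 26.1-fold for *KRT80* (19.3 to 36.0), 2.92-fold for *KRT18* and 1.63-fold for *KRT8*. Among *KRT81*-on cells the ratios were 1.95 for *KRT7*, 1.11 for *KRT80*, 1.52 for *KRT18* and 1.35 for *KRT8*. RV cells without *KRT81* thus stood above S cells with it in *KRT7* (501 against 355 CPM) and *KRT18* (1438 against 1067), and below them in *KRT80* (52.4 against 65.3). *KRT10* and *VIM* differed by at most 1.14-fold in either class.

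**Figure D5:**
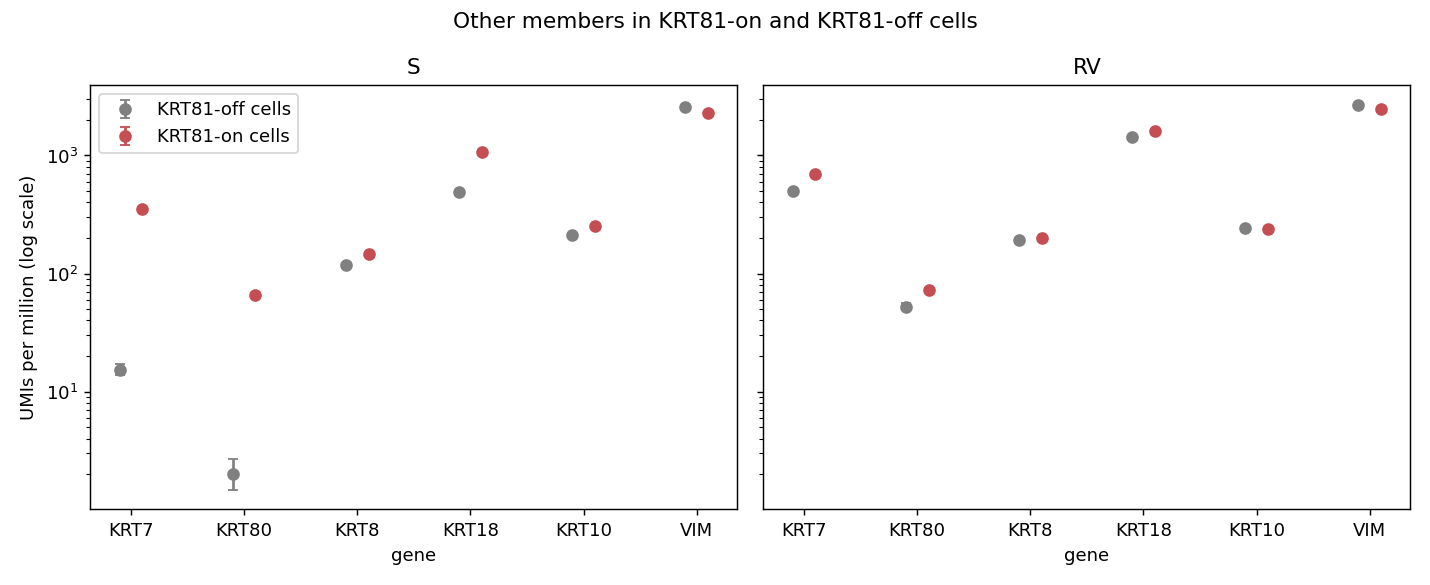
Level in CPM (log axis) of the 6 other genes in *KRT81*-on (red) and *KRT81*-off (grey) cells of S and of RV, with exact 95% Poisson intervals. *KRT7*, *KRT80* and *KRT18* are apart in S (355 and 15.3 for *KRT7*) and close in RV (691 and 501).

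On and off cells also differed in other measures, whose part in these values was not tested. *KRT81*-on and *KRT81*-off cells had medians of 9285 and 8396 UMIs in S and 12413.5 and 10623 in RV, and 2.99% and 3.29% mitochondrial UMIs in S. The 11 G2/M genes summed to 676 and 416 CPM in S, with none of them 2-fold apart, and to 715 and 542 in RV. The 9 melanocyte lineage genes summed to 125 CPM in on and 259 in off cells of S and to 64.8 and 101 in RV. In S, *S100B* (12.3 and 52.8 CPM) and *ERBB3* (37.7 and 89.7) were lower and *MITF* (15.5 and 4.56) was higher in on cells. The 10 mesenchymal genes summed to 741 and 783 CPM in S and to 817 and 995 in RV. In S, *TGFBI* was higher in on cells (305 and 135 CPM), while *S100A4* had 113 and 218 CPM and *FN1* 8.61 and 14.9. *NES* and *NEFL* were lower in the on cells of S, at 10.1 and 3.14 CPM against 40.9 and 19.5.

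In RV the split by *KRT7* parted *KRT80* and *KRT18* more than that by *KRT81* did, whereas in S it parted *KRT80* less. In S, *KRT81* had 2743 CPM in *KRT7*-on and 293.5 in *KRT7*-off cells and *KRT80* 82.3 and 6.32. In RV, *KRT81* had 666 and 170 CPM, *KRT80* 70.4 and 22.3 and *KRT18* 1646 and 1011. So 3 of 6 other members passed 2-fold upward in S and 2 in RV, where 3.74% and 2.38% of all genes did, and none passed it downward, where 3.09% and 3.11% did. *KRT81* is among them in both libraries, and as it was chosen together with *KRT7* nothing is read from its place in these counts. *KRT7*-on cells were deeper, with medians of 10793 against 8218.5 UMIs in S and 12636 against 8406 in RV, and their G2/M sum was higher, at 849 against 408 CPM in S and 717 against 355 in RV. Of the 11 G2/M genes 6 in S and 7 in RV were at least 2-fold higher in *KRT7*-on cells, where 3.74% and 2.38% of all genes were. The melanocyte lineage sum of *KRT7*-on cells was lower, at 77.0 against 256 CPM in S and 64.4 against 209 in RV, as was the mesenchymal sum, at 585 against 840 and 782 against 1562. Of the 4 lineage genes with at least 10 CPM, 1 was at least 2-fold higher and 3 lower in *KRT7*-on cells of both libraries. Of all genes 3.74% in S and 2.38% in RV were higher, and 3.09% and 3.11% lower. The part of these measures in the *KRT7* split was not tested.

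In RVT the 141 *KRT81*-on cells had 59.8 CPM of *KRT7* against 23.7 in *KRT81*-off cells, but the former value rests on 32 UMIs. *KRT18* had 350 and 115 CPM (3.04-fold, 2.61 to 3.54) and *KRT80* 116 and 47.9 (2.42-fold, 1.84 to 3.13). With *KRT7* (2.53-fold, 1.71 to 3.62), which was chosen together with *KRT81* and from whose place nothing is read, 3 of the 6 were at least 2-fold higher, where 3.41% of all genes were higher and 4.21% lower, and the intervals of *KRT7* and *KRT80* reached below 2-fold.

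Of 3731 genes with at least 20 CPM in S, those whose levels were most like *KRT81* across cells (Pearson correlation at full depth) were *SPANXB1* (0.72), a cancer-testis gene whose counts are uncertain because it belongs to a family of near-identical copies, *KRT7* (0.71), *C19orf33* (0.71), the tropomyosin gene *TPM1* (0.62), *CAV1* (0.61), which encodes caveolin-1, *IGFBP6* (0.57), the metallothionein gene *MT2A* (0.53) and the growth factor gene *MDK* (0.53). *KRT80* ranked 18 and *KRT18* 21, whereas *KRT8* ranked 464 and *VIM* 3457. The least like were *SNRPB2* (-0.57), *TIMP1* (-0.57), *CD74* (-0.54), *EEF2* (-0.53) and *SLC26A2* (-0.53). *SPANXB1* had 415.5 CPM in *KRT81*-on and 4.11 in *KRT81*-off cells of S. For *KRT7* the list opened with *KRT81*, *SPANXB1* (0.68), *C19orf33* (0.63), *CAV1* (0.52) and *TGM2* (0.52).

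In RV no gene came close to *KRT81*. *SPANXB1* (0.27) and *KRT7* (0.24) again led, then *TGM2*, *MT2A*, *SERINC2*, *ANKRD1*, *CALM2* and *TXN* (0.24 to 0.21), and the lowest, *RACK1*, *RPS4X*, *CAPS*, *SAT1* and *RPS6*, lay between -0.20 and -0.17. This order is that of full depth. In RV cells thinned to 1500 UMIs *MT2A* (0.16), *SPANXB1* (0.14), *ANKRD1* (0.13), *CALM2* (0.11) and *TGM2* (0.105) stood above *KRT7* (0.09), and 6 of the 8 genes were kept among the top 8, as in S. *KRT7* in RV was most like *SPANXB1* (0.48), *MT2A* (0.43), *CMSS1* (0.38), *AP3S1* (0.37) and *FOSL1* (0.37).

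The levels of these genes across libraries were mixed. *IGFBP6* had 149 CPM in S, 42.3 in RVC and 56.8 in RVT, *TPM1* 204, 145 and 126, and *MT2A* 2810, 1304 and 128, lower in both than in S. *SPANXB1* reached 202 CPM in S and 1297 in RV, with 0.243 in RVC and 1869 in RVT, and was found in 36.6% of S, 95.98% of RV and 93.9% of RVT cells. It was high in RVT, where *KRT81* was 12.6-fold below S. *C19orf33* had 127, 869, 4.00 and 23.7 CPM in the same order and went with *KRT7*. *CAV1* had 89.4, 288, 513 and 314 CPM, highest in RVC where *KRT81* was nearly absent.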

How the data were processed

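For each condition the authors deposited a sparse table of raw UMI counts (genes by barcodes), made with Cell Ranger (release not given in the sources used here) on GRCh38, without normalization. The labels give 1 library per group and no replicate numbers. Counts of barcodes with at least 500 genes and at most 20% mitochondrial UMIs were kept, and the barcodes with the highest scrublet scores (scanpy 1.11.5) were removed at 0.8% per 1000 barcodes. The deposited tables hold 6695 S and 4328 RV barcodes. The study states fewer cells for both, and which barcodes it kept is not given in the sources used here, so the shares of on cells rest on a larger set. Totals were 58519152 (S), 52461572 (RV), 32974745 (RVC) and 25390117 UMIs (RVT), so that 3 UMIs correspond to 0.0513, 0.0572, 0.0910 and 0.118 CPM. Gene identifiers were matched to GENCODE 29 (33675 of 34241).

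Sums, Poisson and Clopper-Pearson intervals and conditional binomial intervals of ratios were computed in python 3.11.15 (numpy 2.4.6, pandas 2.3.3, scipy 1.17.1), figures with matplotlib 3.10.9, and TMM factors with edgeR 4.0.16. Thinning to 1500 UMIs (seed 1) left out 397 RVC and 844 RVT cells. All ratios were described without a test. A gene with 0 UMIs on 1 side was set to 3 UMIs.

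The genes named were the members, other keratins with at least 10 CPM, the 8 most and 5 least like *KRT81* and the 5 most like *KRT7* (genes with at least 20 CPM), some of the list genes past 2-fold with at least 10 CPM (at most 4 per list and comparison) and overlapping or near-identical genes. Other list genes past 2-fold, among them those of the G2/M list, were not named. List genes shown outside this rule mark whether a cell type is present or were named after their values were seen. The members and lists were chosen with earlier results of these data known. Ratios, on-off calls and thinning were tested on simulated data. The simulated off cells held no transcript and the on cells all had the same level. The simulation therefore does not measure errors of on-off calls in graded counts such as those of *KRT81*. Alternatives were other cell filters, on limits, scalings, GC centring, seeds and correlations.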

Additional observations from a re-analysis of the deposited data

How the results depend on the processing

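No paired analysis was possible because each condition is 1 library and the labels carry no replicate numbers, so no value has a replicate check, and no library could be left out. No member ratio beyond 2-fold changed direction under another cell filter, weighting, scaling or GC centring. TMM scaling shifted the log2 ratio of every gene by -0.044 in RV, -0.213 in RVC and -0.515 in RVT against S and by -0.303 in RVT against RVC. Near the 2-fold limit, 1 member in place of 0 was lower and 1 in place of 2 higher in RV against S (TMM, library size without ribosomal and mitochondrial genes, GC centring), and 1 in place of 0 lower in RVT against RVC (TMM, GC centring). With GC centring 1 in place of 0, *KRT8*, was higher in RVC and in RVT against S, past the limit by an amount that depends on the bin edge. *KRT8* in RVC against S, 0.13 on the log2 scale, was -0.08 with TMM and -0.06 without ribosomal and mitochondrial genes, and *KRT10* in RV against S, 0.05, was -0.01 in the latter. Shares of on cells at 1500 UMIs followed the limit: from 2 UMIs they were 34.15% (S) and 21.93% (RV) for *KRT81* and 5.005% and 21.55% for *KRT7*, from 5 UMIs 13.78%, 4.74%, 0.09473% and 0.7422%, and without thinning 44.82%, 44.24%, 20.75% and 72.06% in the same order. The ratio of *KRT7* detection in *KRT81*-on over *KRT81*-zero cells of S was 9.6 with on from 2 and 11.32 with on from 5 UMIs, 9.072 in cells with 1000 genes or more, 9.729 without doublet removal and 6.512 without thinning, and in RV 1.32 without doublet removal and 1.138 without thinning. Of the 5 genes most like *KRT7*, 3 were kept when cells were thinned, in S and in RV. Depth limits the low members most: *KRT80* had no cell with 3 UMIs in S at 1500 UMIs per cell, so no *KRT80*-on cells could be compared there. At that depth 10.4% of *KRT81*-on and 0.618% of *KRT81*-zero S cells had a *KRT80* UMI.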
